A study of Mus musculus with 48 samples.

Results

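Ighd4-1, also called DQ52, is the diversity (D) segment nearest to the joining (JH) segments in the mouse locus for immunoglobulin heavy chains (Igh), and is 1 of 21 annotated D segments there. Its junctions were taken from LAM-HTGTS lists, in which a primer at a bait segment is extended by linear amplification and the read shows the DNA (the prey) to which the bait was joined. A junction counted for Ighd4-1 if its prey lay on the plus strand of chromosome 12 within 20 bases of the annotated segment, which means from 114668719 to 114668769 in the mm9 build. Of 8040464 plus-strand D junctions in the 25 full lists with JH baits, 1282449 met this rule. Each value below is a share of the D junctions of a library unless another denominator is named, so that a higher share of Ighd4-1 goes with a lower summed share of the other D segments. The number of joining events per cell was not measured.

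V(D)J recombination assembles an antibody gene from separate segments, and the Igh locus joins a D to a JH before a V is joined to the DJ. The RAG endonuclease gathers on the JH segments and on Ighd4-1, which lies just upstream of them, and cuts at recombination signal sequences made of a heptamer, a spacer and a nonamer. Cohesin can pull chromatin past bound RAG by extruding a loop, and Wapl is the protein that releases cohesin from chromatin. The series asked how RAG scanning and locus contraction depend on cohesin and on the orientation of the locus.

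The marrow libraries came from C57BL/6 bone marrow (BM) pro-B cells taken on B220 beads and grown with IL-7 and SCF, in 3 libraries without (WT BM) and 4 with an Igh inversion (INV BM). The genotype field lists RAG1 deficiency for both marrow groups, whereas their libraries hold V(D)J joints. The other 18 libraries came from pro-B lines transformed by v-Abl, with 3 for each of 6 groups. All these lines carried OsTIR1 (a plant receptor that lets auxin trigger loss of a tagged protein), the Emu-Bcl2 transgene (a survival gene under a B-lineage enhancer) and RAG1 deficiency, were infected with a RAG1/2 retrovirus, and were exposed to 3 uM STI-571, an Abl kinase inhibitor that arrests them. One group was the untreated parental line, and 2 were a line with the Wapl-degron allele, untreated or with IAA/Dox. The other 3 had a Single Igh genotype as well, untreated, with IAA/Dox, or with IAA/Dox in a line titled INV. Untreated cells had STI-571 for 4 days, and IAA/Dox cells had it for 1 day before 3 days of STI-571 with 150 uM auxin (IAA) and 2 mg/mL doxycycline (Dox). Where the inversion ends is not in the labels, and the genotype field of the INV line does not list it. They also do not give the level of Wapl protein or say whether replicates were separate mice or cultures. P-values therefore measure the spread between these libraries, which may be technical.

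The libraries held 61194 to 1016401 junctions, of which 58300 to 842605 were D junctions and 4548 to 111058 lay at Ighd4-1. The 95% Wilson intervals of the shares reached at most 0.334 percentage points to either side, which covers counting error only, since the reads carry no molecular identifiers. The bait JH, read from where the bait alignment ends, differed between libraries of a group. Parental replicate 1 held 92.3% JH4 baits and none of JH1 or JH3, Single Igh untreated replicate 1 held JH2 alone, and Wapl-degron untreated replicate 1 held no JH2. Single Igh IAA/Dox replicates 1 and 3 were 82.8% and 81.5% JH1, and INV IAA/Dox replicate 1 was JH1 alone. The other libraries held all 4 baits. Because the share of Ighd4-1 differed by bait, each comparison was also made within each bait.

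Ighd4-1 is an annotated D gene segment of 11 bases on the minus strand of chromosome 12, with its V-side end at 114668749 and its JH-side end 695 bp from the start of Ighj1. Ighd1-1, the longer D segment toward the other end of the D region and the one most used in 6 of the 8 groups, lies 52337 bp from Ighj1 (114720381 to 114720403). Both are shown with their flanking signals because the results turn on how they share the D junctions. The letters are from the mm9 reference, 5′ to 3′ on the coding strand, with the D segment in capitals, and the JH-side signal follows it.
Ighd4-1, chr12:114668711-114668777: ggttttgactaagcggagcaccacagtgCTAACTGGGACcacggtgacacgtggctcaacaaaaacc
Ighd1-1, chr12:114720353-114720431: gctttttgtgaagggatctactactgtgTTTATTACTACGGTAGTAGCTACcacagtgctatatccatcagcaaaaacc
The JH-side heptamer of Ighd4-1 read CACGGTG, with 1 mismatch to CACAGTG, and no other of the 21 D segments had these letters at that place (4.76%). The heptamer CACAGTG itself stood there in 8 of 21 segments (38.1%), Ighd1-1 among them. The JH-side nonamer of Ighd4-1 was ACAAAAACC, the same as in 7 of 21 (33.3%) counted with itself. On the V side, read outward, the heptamer of Ighd4-1 was CACTGTG, found in 3 of 21 (14.3%) with itself. Letters were compared only at the place of each signal beside its segment.

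In marrow Ighd4-1 took 5.51% to 9.75% of D junctions. Its share was 8.95%, 7.40% and 7.75% in the 3 WT BM libraries (8.03% ± 0.811, SD, n = 3). INV BM libraries gave 5.51%, 9.55%, 9.67% and 9.75% (8.62% ± 2.07, n = 4), with replicate 1 below all WT BM libraries and the other 3 above them. In both marrow groups it ranked 4 among the 21 D segments, behind Ighd1-1 (45.2% ± 1.10 in WT BM and 44.1% ± 2.35 in INV BM), Ighd2-4 and Ighd2-8.

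Untreated lines gave shares from 3.05% to 14.8%. Parental libraries stood at 3.05%, 14.0% and 14.1% (10.4% ± 6.35, n = 3), the low one being the library of JH4 baits. Wapl-degron untreated libraries stood at 9.48%, 13.2% and 12.9% (11.9% ± 2.06, n = 3), and Single Igh untreated libraries at 14.8%, 10.8% and 10.3% (11.99% ± 2.48, n = 3). These 3 groups overlapped each other. The Single Igh untreated libraries lay above all marrow libraries, the Wapl-degron untreated ones lay above all WT BM libraries, and the parental libraries lay on either side of marrow through the library of JH4 baits. Ighd4-1 ranked 2 in the parental and Wapl-degron groups and 3 in Single Igh untreated, while Ighd1-1 took 77.9% ± 5.86, 77.0% ± 1.501 and 66.7% ± 2.99.

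With IAA/Dox and over all baits, Ighd4-1 was the most used D segment in the Wapl-degron and Single Igh lines. The 3 treated Wapl-degron libraries gave 63.0%, 59.6% and 61.2% (61.3% ± 1.68, n = 3), and the 3 treated Single Igh libraries 41.3%, 57.9% and 39.2% (46.1% ± 10.2, n = 3). In the INV line with IAA/Dox it was 21.7%, 22.9% and 23.3% (22.6% ± 0.823, n = 3). In rising order of mean share the groups were WT BM, INV BM, parental, Wapl-degron untreated, Single Igh untreated, INV IAA/Dox, Single Igh IAA/Dox and Wapl-degron IAA/Dox. Each of the first 5 overlapped its neighbour among these 5, and the last 3 stood apart from their neighbours.

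**Figure D1:**
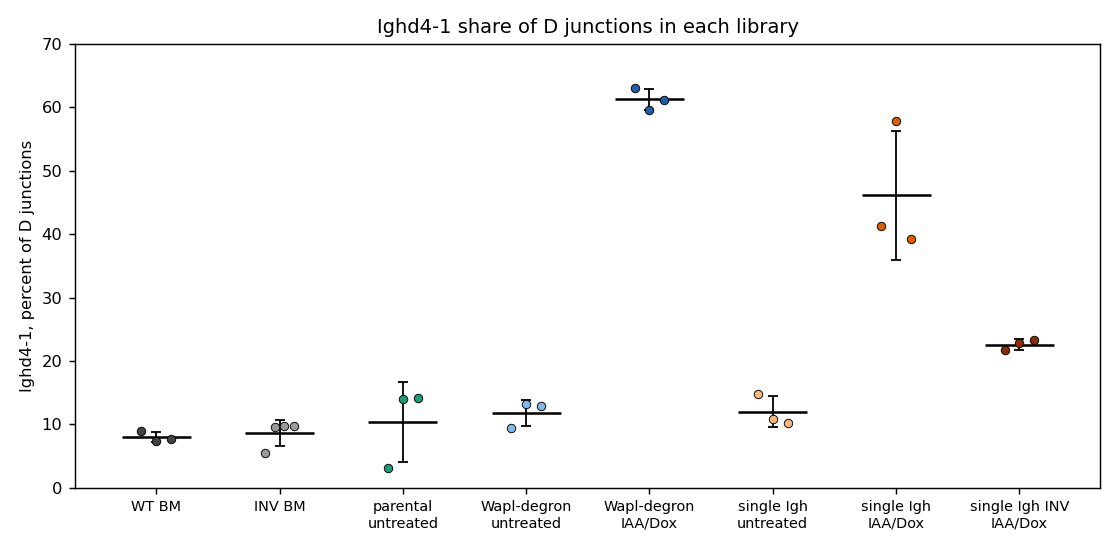
Share of plus-strand D junctions at Ighd4-1 (y axis, percent) in each of the 25 libraries, by group (x axis); points are libraries, horizontal bars means and error bars SD. The Wapl-degron IAA/Dox libraries lie between 59.6% and 63.0%, and all libraries of untreated lines lie at or below 14.8%.

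Each line of a list need not be a separate joining event, so the shares were also taken over distinct junctions, which counts each combination of bait end, prey junction, strand, bases between and prey end once. Ighd4-1 then held 7.60% ± 0.854 in WT BM (SD, n = 3), 8.20% ± 2.25 in INV BM (n = 4), 12.8% ± 7.52 in the parental line, 15.3% ± 2.00 and 55.5% ± 1.33 in Wapl-degron cells without and with IAA/Dox, 14.7% ± 2.73 and 40.0% ± 8.25 in Single Igh cells without and with it, and 21.6% ± 0.422 in INV cells with it (n = 3 for each group of the lines). Counting each joint once, whatever the prey end, brought the IAA/Dox groups down to 45.7% ± 2.02, 33.8% ± 6.89 and 17.9% ± 1.04, with the Wapl-degron and Single Igh differences at 32.3 and 21.7 percentage points. The groups with and without IAA/Dox stayed apart on each count, and the marrow values moved little.

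The first comparison asked what IAA/Dox changed in the Wapl-degron line. The share was 49.4 percentage points higher, a 5.17-fold difference, and every treated library lay above every untreated one (two-sided exact permutation test, p = 0.1, the smallest that 3 against 3 libraries can give, adjusted p = 0.2 over 6 comparisons). Limma's test across D-region segments took the D-region junctions of both strands as the library size, whereas the shares use the plus strand alone. By limma Ighd4-1 rose by 2.32 on the log2 scale (SE 0.08, adjusted p = 2.4e-14). In that comparison 28.8% of the 52 segments tested were called higher, 17.3% lower and 46.2% in either direction. This limma p shares its estimate of spread over segments and does not measure the spread of Ighd4-1 alone. Of all junctions in a library, Ighd4-1 held 48.6% to 55.6% with IAA/Dox against 9.02% to 12.7% without it, with no overlap on that denominator either. Within sequencing run 5, which held both groups, 1 treated library stood at 59.6% and 3 untreated ones averaged 11.9%.

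The same treatment in the Single Igh line gave a share 34.1 percentage points higher, or 3.85-fold, again with no overlap (exact permutation p = 0.1, which is the lowest possible, adjusted p = 0.2). By limma it rose by 1.96 on the log2 scale (SE 0.19, adjusted p = 6.4e-08), among 21.8% of 55 segments called higher, 20% called lower and 41.8% in either direction. The 23 segments called became 15 without untreated replicate 3 or IAA/Dox replicate 1 and 12 without IAA/Dox replicate 3. With sequencing run as a factor 5 were called, and Ighd4-1 was the only one called higher (log2 difference 2.13, limma adjusted p = 0.0097). Within run 4 the means were 48.5% in 2 treated libraries and 10.8% in 1 untreated library. On the log2 scale the effect was 2.37 for Wapl-degron cells and 1.94 for Single Igh cells. A permutation of line labels within each treatment did not call this difference of 0.43 (exact p = 0.2, 400 arrangements). Both effects are over all baits, whose mix differed between libraries. Within JH1 to JH4 the treated to untreated ratio was 5.74, 3.64, 5.05 and 5.21 in Single Igh cells. In Wapl-degron cells it was 5.35, 4.11, 5.65 and 4.37, so the Single Igh ratio was the higher for JH1 and JH4.

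The INV line was set against the Single Igh line, both with IAA/Dox. Inversion and any other difference between these lines cannot be told apart here. The share of Ighd4-1 differed from that in the Single Igh line by -23.5 percentage points, a ratio of 0.490, and the 3 INV libraries lay below the 3 others (exact permutation p = 0.1, the floor for 3 against 3, adjusted p = 0.2). By limma it fell by 1.00 on the log2 scale (SE 0.17, adjusted p = 0.000559), the only one of 54 segments called lower (1.85%), against 25.9% called higher and 27.8% in either direction. With sequencing run as a factor the limma estimate fell by 0.88 on the log2 scale and lost its call (adjusted p = 0.172). Within run 8, 2 INV libraries averaged 22.3% and 1 Single Igh library stood at 41.3%. The Single Igh IAA/Dox libraries serve this comparison and the one before it, so these comparisons are not independent. INV IAA/Dox was 22.6% while Single Igh untreated was 11.99%; an untreated INV group is not analysed here.

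For the same inversion label in marrow, the mean share differed by 0.587 percentage points, within the spread of the INV BM libraries (exact permutation p = 0.629, smallest possible 0.0571, adjusted p = 0.754). The limma estimate had the opposite sign (log2 difference -0.14, SE 0.29, adjusted p = 0.815), where 14.6% of 82 segments were called, 2.44% higher and 12.2% lower. The mean difference in share stayed positive whichever library was left out (0.211 to 1.62 percentage points), while the limma value turned positive without INV BM replicate 1 or without WT BM replicate 1. Within run 1 INV BM replicate 1 stood at 5.51% and WT BM replicate 1 at 8.95%, whereas within run 2 the means were 9.65% in 3 INV BM and 7.57% in 2 WT BM libraries. Without INV BM replicate 1 the limma estimate was 0.21 on the log2 scale (adjusted p = 0.00371), and without WT BM replicate 1 it was 0.03 (adjusted p = 0.965). Of all junctions, Ighd4-1 held 0.447% to 4.39% in WT BM and 4.30% to 8.47% in INV BM, but D junctions made up 5.77% to 49.0% of WT BM and 78.0% to 87.8% of INV BM libraries. With all junctions as the library size, limma put Ighd4-1 higher in INV BM by 2.40 on the log2 scale (adjusted p = 0.0149), as it did each of the 24 segments called. The log2 differences of the INV groups from those without it were 0.10 in marrow and -1.03 in the lines. A permutation of marrow and line labels did not call the gap of 1.13 between them (exact p = 0.351, 700 arrangements). It mixed libraries of unlike share, 8.03% on average in WT BM and 46.1% in Single Igh IAA/Dox. The permutation therefore cannot decide whether the INV differences in marrow and lines are alike.

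The remaining comparisons set the untreated lines and marrow side by side. Wapl-degron untreated exceeded parental by 1.47 percentage points (exact permutation p = 1), and limma gave a log2 difference of 0.37 (adjusted p = 0.794). None of the 55 segments was called there (0%). Between WT BM and parental libraries the difference was -2.35 percentage points (exact permutation p = 0.4, adjusted p = 0.6) and the limma log2 difference -0.50 (adjusted p = 0.509), where 58.2% of 67 segments were called, 56.7% higher and 1.49% lower, and the median segment was at 3.05. With all junctions as the library size 3 segments were called, the median was 0.35 and Ighd4-1 stood at -2.53. Without parental replicate 1, the library of JH4 baits, limma placed Ighd4-1 in WT BM lower by a log2 difference of -0.74 (adjusted p = 1.9e-27), and the difference of Wapl-degron untreated from parental was -2.19 percentage points. The parental libraries enter both comparisons. In neither did a sequencing run hold libraries of both groups, so group and run cannot be told apart.

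The share of Ighd4-1 differed with the bait JH in every group. In Wapl-degron IAA/Dox libraries it held 47.7% ± 0.241 of the D junctions of JH1, 70.4% ± 0.430 of JH2, 59.9% ± 0.633 of JH3 and 17.8% ± 0.720 of JH4 (n = 3 each). Untreated, the same baits gave 8.91% ± 0.574 (n = 3), 17.1% ± 0.164 (n = 2), 10.6% ± 1.02 (n = 3) and 4.07% ± 0.493 (n = 3). JH2 was therefore the bait with the largest share and JH4 the one with the smallest, with and without IAA/Dox, and the groups did not overlap for any bait. For JH4 Ighd1-1 still exceeded Ighd4-1 with IAA/Dox, at 41.5% ± 0.439 in Wapl-degron cells and, against 12.1% ± 0.381 for Ighd4-1, 35.8% ± 0.822 in Single Igh cells (n = 3 each). For JH3 the Single Igh IAA/Dox mean of Ighd1-1 was also the higher, 43.0% against 36.2%, through replicate 3 (73.1% against 11.9%). That library also held more Ighd1-1 than Ighd4-1 for JH2 (56.5% against 31.0%). In the Wapl-degron line the ratio of treated to untreated means of Ighd4-1 was 5.35 for JH1, 4.11 for JH2, 5.65 for JH3 and 4.37 for JH4. With 3 libraries a group or fewer no single bait could pass (exact permutation p = 0.1 for JH1, JH3 and JH4 and 0.2 for JH2, the smallest possible).

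For the JH1 bait the Single Igh IAA/Dox libraries stood at 45.3%, 47.3% and 44.4%, close to each other although their shares over all baits ran from 39.2% to 57.9%. Untreated they stood at 8.09% and 7.83%, and with IAA/Dox the INV line stood at 21.7%, 17.9% and 18.0%. JH1 was the only bait measured in every library of both IAA/Dox groups, and for it the 3 INV libraries lay below the 3 Single Igh libraries (ratio 0.420, exact permutation p = 0.1, the smallest possible). The JH2 and JH3 baits of Single Igh IAA/Dox were far less even. JH2 gave 57.0%, 65.7% and 31.0%, and JH3 42.3%, 54.5% and 11.9%. In replicates 1 and 3 these baits held few D junctions, 2843 and 4197 for JH2 and 359 and 850 for JH3, against 107264 and 22189 in replicate 2. For JH3 the INV libraries (20.1% and 16.2%) overlapped the Single Igh ones, and for JH4 they did not (6.70% and 6.67% against 12.2%, 12.5% and 11.8%).

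Seen from Ighd4-1, most of its joints in marrow and in Wapl-degron libraries with all 4 baits had JH2 as bait, which was also the most frequent bait over all their D junctions. In WT BM 69.8%, 57.4% and 56.0% of Ighd4-1 junctions had a JH2 bait and 9.22%, 10.6% and 9.08% a JH4 bait. Wapl-degron IAA/Dox libraries gave 72.9%, 57.3% and 69.5% for JH2 and 0.694%, 1.07% and 1.44% for JH4, and the untreated ones that held all 4 baits gave 68.5% and 70.9% for JH2 and 1.82% and 1.61% for JH4. Of all D junctions, JH2 baits held 46.4% ± 5.82 in WT BM and 58.1% ± 8.74 in Wapl-degron IAA/Dox, and JH4 baits 14.4% ± 0.925 and 3.65% ± 1.17 (n = 3 each). JH4 was thus less frequent among all D junctions of Wapl-degron IAA/Dox too, and how evenly the bait primers worked in a library was not tested.

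Marrow had a flatter order of baits. WT BM gave 4.42% ± 0.690 for JH1, 10.6% ± 1.05 for JH2, 8.66% ± 0.286 for JH3 and 5.38% ± 0.616 for JH4 (n = 3 each), and INV BM 4.95% ± 1.34, 11.1% ± 2.76, 8.87% ± 2.22 and 6.47% ± 1.402 (n = 4 each). Against the parental line, WT BM lay below it for JH1 (9.35% and 9.48%) and JH3 (11.3% and 11.2%) and above it for JH4 (2.74%, 3.78% and 4.05%), with no overlap in these 3 baits. Over distinct junctions the JH4 difference turned to -0.274 percentage points. For JH2 the parental libraries stood at 6.77%, 18.3% and 18.3%, on either side of WT BM, and the 6.77% was the library of mostly JH4 baits. Within each library that held both baits, the JH2 share exceeded the JH1 share in 20 of 21, by 9.37 percentage points on average, 6.14 in marrow and 10.99 in the lines (two-sided sign-flip permutation test, p = 6.0e-05). The exception was Single Igh IAA/Dox replicate 3. Sign-flip tests here count each library as independent, although the libraries are replicates within 8 groups, so their p can be too small. The JH3 share was below the JH2 share in 21 of 21 libraries (mean difference -7.36 points, -2.07 in marrow and -10.0 in the lines), and the JH4 share below the JH3 share in 22 of 22 (mean -13.0 points, -2.78 in marrow and -17.7 in the lines), each with permutation p = 1e-05, the smallest that 100000 resamples can give.

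**Figure D2:**
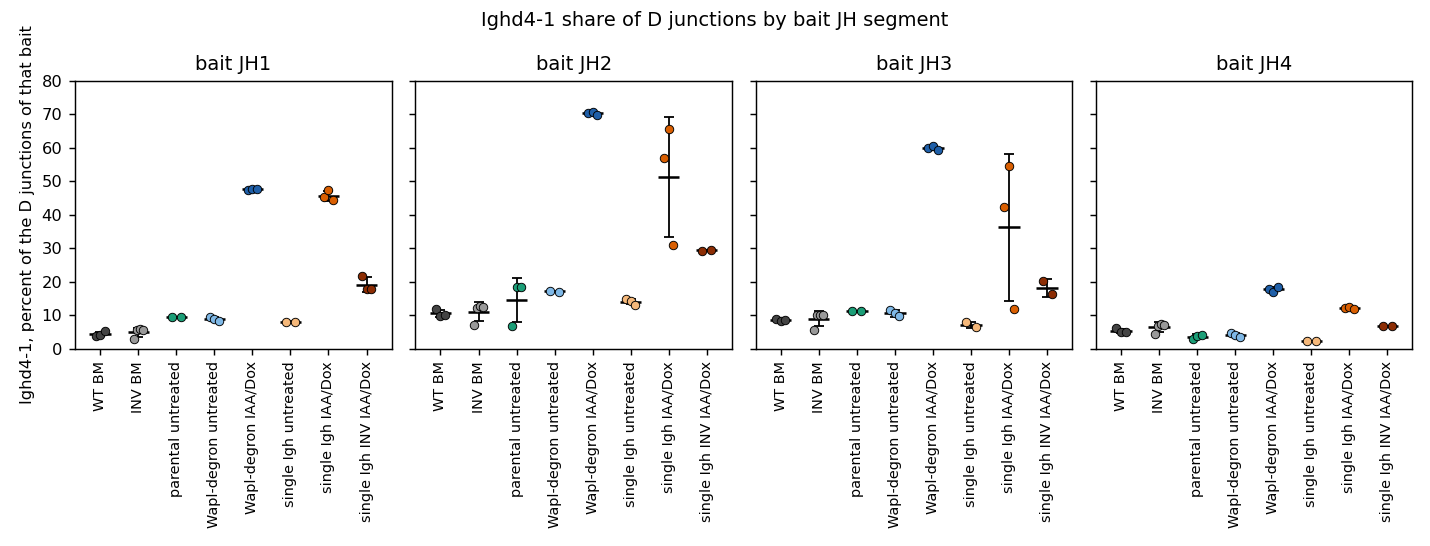
Ighd4-1 as a percent of the D junctions of each bait JH segment (y axis), in a panel per bait and by group (x axis); points are libraries with at least 100 D junctions of the bait, bars the mean and SD. Wapl-degron IAA/Dox libraries average 70.4% for JH2 and 17.8% for JH4, and Single Igh IAA/Dox replicate 3 is the low point of its own group for JH2 and JH3.

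Which D segments moved against Ighd4-1 was read from all annotated D segments. In Wapl-degron cells with IAA/Dox, 7 of the 18 annotated D segments tested were called higher and 1 lower by limma. Of all 52 segments tested, 28.8% were called higher and 17.3% lower. The median log2 difference over the 18 annotated D segments was 0.39. Ighd4-1 had the largest increase of them, and the only decrease called was that of Ighd1-1, from 77.0% ± 1.501 to 23.7% ± 1.22 (log2 difference -1.69, SE 0.05, limma adjusted p = 1.3e-14). The Ighd2 segments Ighd2-4 to Ighd2-8 were called higher by 0.53 to 1.13, and Ighd3-2, the D segment next to Ighd4-1, by 0.68. In the Single Igh line 5 of 19 were higher and 3 lower (median -0.03), beside 21.8% and 20% of all segments tested, Ighd4-1 again having the largest increase, while Ighd1-1 fell by 1.27 on the log2 scale, from 66.7% ± 2.99 to 28.5% ± 6.11 (limma adjusted p = 1.3e-05). Ighd6-1, the segment next to Ighd1-1 on its JH side, and Ighd6-2 were the other D segments called lower.

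With INV added, 6 of 19 annotated D segments were called higher and Ighd4-1 alone lower, against a median log2 difference of 0.98. Of all 54 segments tested, 25.9% were called higher and 1.85% lower. Ighd1-1 averaged 37.4% ± 4.48 in the INV line and was not called (log2 difference 0.42, limma adjusted p = 0.0871), yet it ranked first there and Ighd4-1 second. The count rests on few libraries: 30 segments of all kinds were called without INV replicate 1, and 2 without INV replicate 2 or 3, where the full set called 15. Ighd4-1 was called lower in each of these fits. Among the 17 D segments that could be compared, Ighd2-3 had the group means most like those of Ighd4-1 (Pearson r 0.20 over the log2 means of the 8 groups), followed by Ighd2-8 (r 0.05). No other D segment thus followed Ighd4-1 closely over the groups.

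**Figure D3:**
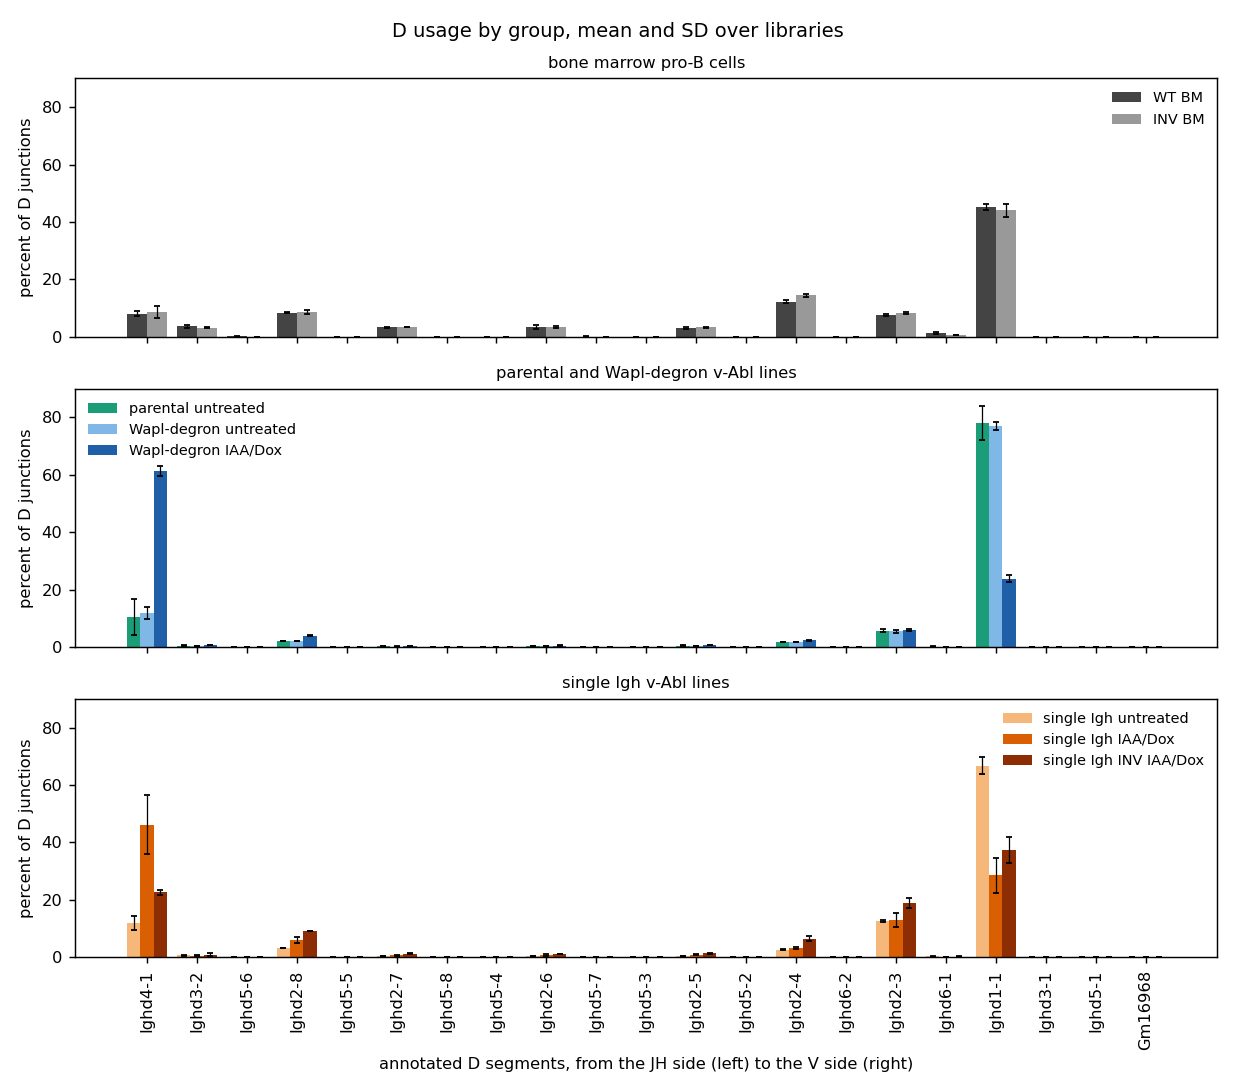
Percent of D junctions (y axis) at each of the 21 annotated D segments, ordered from the JH side to the V side (x axis), in marrow (top), parental and Wapl-degron lines (middle) and Single Igh lines (bottom); bars are group means and error bars SD. Ighd4-1 and Ighd1-1 hold most of the D junctions in the lines, and the internal segments hold more of them in marrow.

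Joints of Ighd4-1 to JH looked different in marrow and in the lines. Each joint was read as having bases between the D and JH alignments, as joined directly, or as sharing bases that fit both. Bases lay between them in 83.5%, 83.1% and 79.7% of Ighd4-1 joints in WT BM (82.1% ± 2.06, n = 3) and in 82.6% ± 0.922 (n = 4) in INV BM. In parental libraries it was 31.4%, 28.8% and 28.6% (29.6% ± 1.54, n = 3), below every marrow library (WT BM against parental, exact permutation p = 0.1, the floor, adjusted p = 0.274 over 12 structure tests). Where bases lay between, they numbered 3.88 on average in WT BM and 2.03 in the parental line.

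The other lines resembled the parental one, with 26.3% ± 4.27 in Wapl-degron untreated, 35.0% ± 0.794 in Wapl-degron IAA/Dox, 26.6% ± 1.64 in Single Igh untreated, 22.7% ± 4.94 in Single Igh IAA/Dox and 16.1% ± 5.58 in INV IAA/Dox (n = 3 each). Wapl-degron IAA/Dox libraries lay above untreated ones (exact permutation p = 0.1, the smallest possible), and so they did for JH1 joints alone (25.4% ± 0.621 against 19.2% ± 0.762) and JH2 joints alone (38.3% ± 0.348 against 31.6% ± 0.138). In Single Igh lines the difference over all baits was -3.89 percentage points, but it was 3.26 for JH1, 4.23 for JH2, -0.281 for JH3 and 2.00 for JH4 joints alone. IAA/Dox replicates 1 and 3 held mostly JH1 and untreated replicate 1 only JH2, and the part of this mix in the turned sign was not tested. For JH1 joints the INV line stood at 9.47% ± 0.409 and Single Igh IAA/Dox at 19.1% ± 0.552 (n = 3 each). Shared bases were the most common kind in the lines, at 38.7% to 57.8% of Ighd4-1 joints by group mean, and were 8.27% in WT BM.

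**Figure D4:**
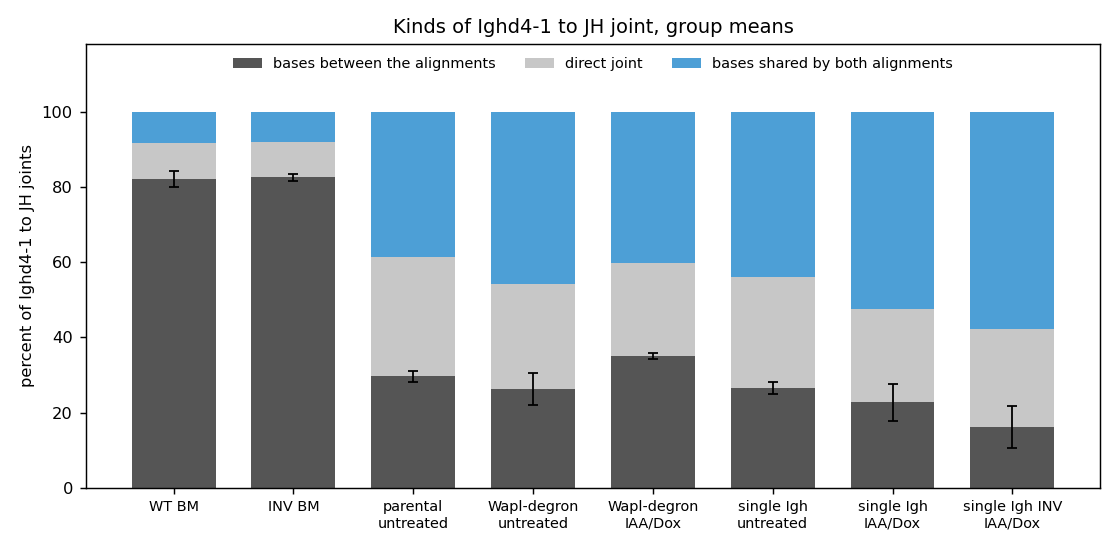
Kinds of Ighd4-1 to JH joint as a percent of such joints (y axis, stacked group means) by group (x axis); the error bar is the SD of the share with bases between the alignments. That share is 82.1% in WT BM and 82.6% in INV BM, and 35.0% or less in each group of the lines.

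The JH-side end of Ighd4-1 was often intact. Its last base was kept, with no further base, in 33.2% of joints in WT BM, 34.2% in INV BM and 48.7% to 56.1% in the lines. Bases that fit both D and JH counted here as kept bases of the D, and such joints were more common in the lines. The part of these shared bases in the difference was not tested. The next most common end had lost 2 bases, in 18.8% of joints in WT BM and 13.6% in the parental line. On average 3.42 ± 0.287 bases were missing in WT BM, 2.89 ± 0.177 in INV BM and 1.75 ± 0.0108 in the parental line. These averages count bases from the JH-side end to the junction. They include junctions up to 20 bases past the V-side end, which keep none of the 11 bases of Ighd4-1. Junctions further than 11 bases from the JH-side end were more frequent in each WT BM library than in each parental one. Their part in these averages was not tested, so the averages do not measure trimming of Ighd4-1 alone. All 3 WT BM libraries lay above the parental ones (exact permutation p = 0.1, the floor, adjusted p = 0.274). Of the INV BM libraries, 3 lay below every WT BM library and replicate 1 overlapped them (exact permutation p = 0.114).

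**Figure D5:**
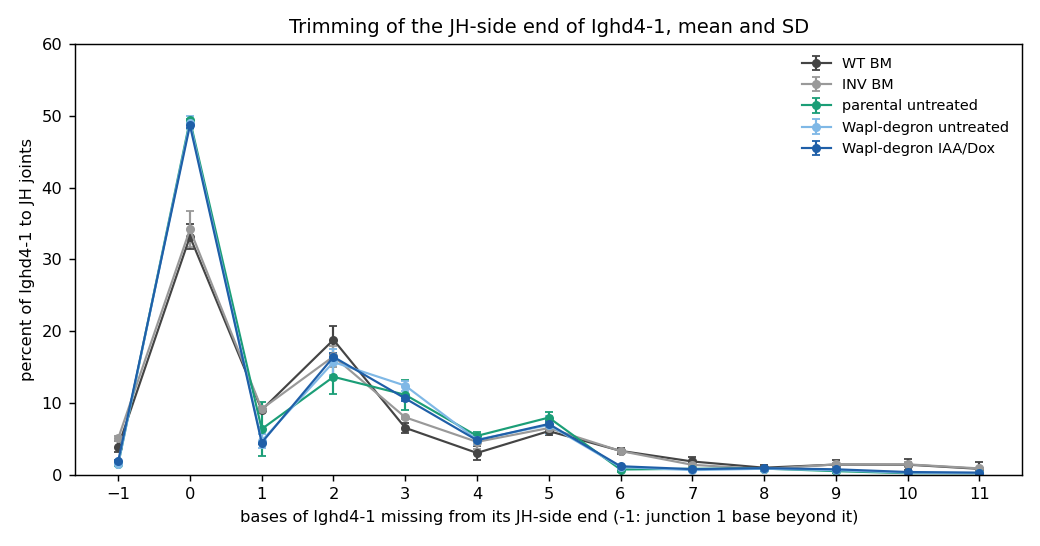
Percent of Ighd4-1 to JH joints (y axis) by the number of bases missing from the JH-side end of Ighd4-1 (x axis) in WT BM, INV BM, parental, Wapl-degron untreated and Wapl-degron IAA/Dox libraries; points are group means and error bars SD. The intact end holds 33.2% of joints in WT BM and 49.4% in the parental line, and a smaller peak stands at 2 missing bases. Joints with a junction further than 11 bases from the JH-side end count in the percent but are not drawn.

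Set against Ighd1-1 in the same 25 libraries, joints of Ighd4-1 kept more of the D end. The mean difference in bases missing was -0.8294 (lower in 25 of 25, sign-flip permutation p = 1e-05, the floor for 100000 resamples) and an intact end 8.06 percentage points more often (24 of 25 libraries). Bases between D and JH were 4.46 percentage points more frequent (22 of 25 libraries, permutation p = 2.0e-05). For both segments, bases shared with JH counted as kept, and junctions up to 20 bases past the V-side end were included. The segments differ in length and in the letters of their ends, and the part of all these in the differences was not tested.

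Certain exact joints of Ighd4-1 recurred within a bait in the lines. They are shown, 5′ to 3′ as read on the coding strand with the bases of Ighd4-1 in capitals and the JH bases after them, because each was the most frequent joint of its bait in the Wapl-degron line, and their shares are of the Ighd4-1 joints of that bait alone.
JH1 joint: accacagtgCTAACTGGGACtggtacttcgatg
JH2 joint: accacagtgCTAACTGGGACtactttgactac
JH3 joint: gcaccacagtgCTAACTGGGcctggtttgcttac
JH4 joint: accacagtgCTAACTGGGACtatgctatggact
In the JH1 joint the full D is followed by JH1 and 2 bases fit both segments. It made up 37.8% ± 0.225 (n = 2) of JH1 joints in the parental line, 37.8% ± 0.625 and 35.0% ± 0.583 (n = 3 each) in the Wapl-degron line without and with IAA/Dox, and 42.4% ± 0.406 (n = 3) in the INV line. In WT BM it was 8.87% ± 5.11 (4.34% to 14.4%, n = 3) and in INV BM 7.81% ± 1.28 (n = 4), below every library of the lines, though still the most frequent single joint of JH1 there.

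The JH2 joint, in which the D and bait alignments overlap by 3 bases, took 11.9% ± 1.26 (n = 3) of JH2 joints in the parental line, 9.89% ± 0.131 (n = 3) in Wapl-degron IAA/Dox and 1.46% ± 0.234 (n = 4) in INV BM. The JH3 joint has lost 2 bases of the D, which meets the first annotated base of JH3, and took 11.2% ± 0.0172 (n = 2) in the parental line, 11.2% ± 0.907 (n = 3) in Wapl-degron IAA/Dox and 2.59% ± 1.67 (n = 3) in WT BM. The JH4 joint shares 2 bases and took 10.6% ± 0.345 and 12.6% ± 0.599 (n = 3 each) of JH4 joints in the Wapl-degron line without and with IAA/Dox. The set of most frequent joints was thus alike with and without IAA/Dox in that line, while the share of Ighd4-1 among D junctions differed 5.17-fold. These joints were picked as the most frequent ones of a group, so their levels are a description.

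Junctions in the opposite orientation were rare at Ighd4-1. The minus strand held 0.265% ± 0.0509 of the junctions there in the parental line (n = 3), 0.283% ± 0.0458 and 0.276% ± 0.0551 (n = 3 each) in the Wapl-degron line without and with IAA/Dox, and 0.337% ± 0.0230 (n = 4) in INV BM. The 3 WT BM libraries stood at 0.278%, 0.490% and 4.95%, the last from 237 minus-strand junctions in replicate 3, a library with 88.0% of its junctions in the JH region. The INV line stood at 0.435% ± 0.0348 and Single Igh IAA/Dox at 0.270% ± 0.0904, with no overlap (exact permutation p = 0.1, the floor, adjusted p = 0.571). In 24 of 25 libraries the minus-strand share was higher at Ighd4-1 than at Ighd1-1, with means of 0.502% and 0.119% (permutation p = 1e-05, the smallest possible). Without WT BM replicate 3 the means were 0.317% and 0.115%, and the mean difference was 0.202 in place of 0.383 percentage points (higher in 23 of 24), an alternative chosen after seeing the data. Sites next to the segment gave a measure of background for its plus-strand junctions, but not for the minus-strand shares above. On the plus strand, windows of 51 bp on its JH side and its D side held on average at most 0.00181% and 0.00880% of D junctions. No single window of a library exceeded 0.0760%, and minus-strand junctions in these windows were not counted.

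Ighd4-1 was also sought in finished V(D)J joints, where the read runs from JH through a short D into a VH segment. A joint was counted if the bases between the VH and JH alignments held any 7-base stretch of Ighd4-1, of which there are 5, none found in another annotated D. It occurred in 3.31%, 3.18% and 3.53% of VH junctions in WT BM (3.34% ± 0.176, n = 3), in 3.53% ± 0.330 (n = 4) in INV BM and in 1.98% ± 0.297 (n = 3) in the parental line. The level depends on the stretch length, since the WT BM libraries gave 5.14%, 4.72% and 5.05% with 6 bases and 1.99%, 2.09% and 2.28% with 8. The same stretches with their letters reversed were found in 0% to 0.0619% of VH junctions. These values are lower limits of use, since trimming can leave fewer than 7 bases and the lists hold at most 30 bases between the alignments.

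In Wapl-degron cells with IAA/Dox the share was 5.02%, 4.52% and 6.16% (5.23% ± 0.840, n = 3), against 2.00%, 2.11% and 1.82% without (1.98% ± 0.146, n = 3), a 2.65-fold difference with no overlap (exact permutation p = 0.1, the floor, adjusted p = 0.2). The difference was 3.26 percentage points, 4.41 with 6-base and 1.98 with 8-base stretches. Single Igh libraries stood at 2.04%, 4.55% and 1.64% with IAA/Dox and at 1.34%, 1.202% and 1.47% without, also with no overlap (1.41 percentage points higher, 2.64 with 6-base and 0.985 with 8-base stretches). The INV line gave 4.86%, 0.783% and 1.42%, the first from 7 of only 144 VH junctions, a span that covers all Single Igh IAA/Dox libraries. Of the joints assigned to Ighd4-1 or Ighd1-1, Ighd4-1 held 11.9% ± 1.72 among V(D)J joints in Wapl-degron IAA/Dox, 3.36% ± 0.316 untreated and 7.78% ± 0.606 in WT BM (n = 3 each). Among D to JH junctions it held 70.4% to 73.3%, 10.8% to 14.8% and 14.4% to 16.5% of the same pair. The measures are not on 1 scale, since Ighd1-1 is 23 bases long and offers 17 stretches of 7 bases, 1 of them also in another annotated D. Ighd1-1 stretches were found in 38.9% of VH junctions in Wapl-degron IAA/Dox, 56.9% untreated and 39.7% in WT BM. With their letters reversed they were found in 5.80%, 3.58% and 3.47%. A reversed 7-base stretch of Ighd1-1 also occurs in Ighd2-3 as read. These values can therefore include Ighd2-3 joints and are not a clean measure of background. With 8-base stretches the reversed values were 0.688%, 0.717% and 0.378% in the 3 WT BM libraries.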

How the data were processed

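The lists give 1 junction a line, with the prey's position and strand, the ends of both alignments and the read name, per the file headers. These other values are positions with no normalization, so junctions were counted here from lines of the authors' deposited lists. The submitters' processing notes name mm9 and Bowtie2, without a version or a role. Filters made before deposit, such as one on duplicates, can set how often a joint is listed. Of the series' 48 samples, the 25 full JH-bait lists of single libraries were used; pooled, off-target, splenic and Igk lists were not used here. For WT BM replicate 4 a full list is not analysed here. Titles gave the groups and replicate numbers.

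D junctions were plus-strand junctions from 114668719 to 114766285 on chromosome 12, the D region padded by 20 bases so that the rule for Ighd4-1 lies inside it. Names came from the mm9 gene annotation through synonyms in RefSeq, which named 20 of the 21 D segments. Each bait end was given to the nearest annotated JH; the annotated interval of Ighj2 begins beside the JH2 bait ends rather than spanning them. Baits with under 100 D junctions in a library were left out. All 27 pairs of replicates differed by a chi-square test of their D counts (largest p 0.0122) and none shared a read name, so all were kept. In Wapl-degron IAA/Dox replicate 2, 28.4% of the lines were surplus to 1 line per read name, and counting each name once was an alternative.

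Group means were compared with two-sided exact permutation tests, and paired values with sign-flip permutation tests (100000 resamples), with Benjamini-Hochberg adjustment. The sign-flip tests over all libraries did not model that libraries of a group are replicates. Junctions per D-region segment and strand (annotated D segments, and bins of 1000 bp elsewhere; at least 10 junctions) went into limma 3.58.1 under R 4.3.3 with voom, lmFit and eBayes, a prior count of 0.5 and a threshold of adjusted p under 0.05, fitted to the 2 groups compared. The fit was tested on simulated data. Python 3.11.15, numpy 2.4.6, pandas 2.3.3, scipy 1.17.1 and matplotlib 3.10.9 were used. Alternatives covered denominators, duplicate counting, window width, bait weighting, filters, left-out replicates, replicate blocks and sequencing runs. The labels name no run, so the sequencing run of a library was read from the leading fields of its read names, by the most frequent value.

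The segments named are Ighd4-1, Ighd1-1, the JH baits and the 2 annotated D segments whose group means follow Ighd4-1 most closely; any annotated D may be counted. Ighd2-4, Ighd2-5 to Ighd2-7, Ighd3-2, Ighd6-1 and Ighd6-2 were named after their values were seen. Members, lists and tests were chosen with earlier results of these data known.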

Additional observations from a re-analysis of the deposited data

Results flagged for a closer look

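INV BM replicate 1 lay far from the other 3 INV BM libraries in 7 of the 9 measures of Ighd4-1 examined in that group of 4, by Dixon's test at its 95% critical value. Chance alone flags about 1 in 20 groups, and the 9 measures share their junctions. Its share of D junctions was 5.51%, against 9.55% to 9.75% in the others. By bait it stood at 2.96% for JH1 (others 5.43% to 5.92%), 6.93% for JH2 (12.2% to 12.7%), 5.54% for JH3 (9.97% to 10.0%) and 4.39% for JH4 (6.90% to 7.40%), so all 4 baits were low together. Its joints had 3.15 bases missing from the JH-side end of Ighd4-1 on average, against 2.77 to 2.83, with junctions past the V-side end included. Of its VH junctions 3.03% held a stretch of Ighd4-1, against 3.66% to 3.72%. It was the only INV BM library of sequencing run 1, which it shared with WT BM replicate 1, and the part of the run in these values was not tested.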

How the results depend on the processing

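The Wapl-degron, Single Igh and INV differences in share kept their sign in each alternative run; without 1 library they ranged from 48.2 to 50.2, 28.3 to 37.6 and -27.0 to -17.7 percentage points. Without 1 library their limma log2 values ranged from 2.22 to 2.42, 1.81 to 2.11 and -1.11 to -0.81. Over distinct junctions the first and second were 1.81 and 1.47, the lowest of the limma settings run, and the INV value was -0.88 with no call with run as a factor. Other differences changed sign, and the cause was not tested. In percentage points of share these were INV BM against WT BM within run 1 (-3.44), Wapl-degron against parental with baits weighted equally (-0.820) and without 1 library (-2.19 to 3.35), and WT BM against parental as a share of Ighd4-1 and Ighd1-1 (3.35) or, for JH4 with distinct junctions, -0.274. In limma log2 terms they were INV BM with all junctions (2.40) or D and VH junctions (0.69) as library size and without 1 library (-0.29 to 0.21), and Wapl-degron against parental without 1 library (-0.22 to 0.71). WT BM against parental ranged from -0.74 to -0.26 without 1 library, called without parental replicate 1, and over other settings from -2.53 (all junctions) to -0.21 (replicate block).

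Single baits and distinct junctions were alternatives for joint structure, the baits chosen after seeing the data. Signs turned for the share with bases between, in points, for INV BM (-0.313, -0.339 and -1.54 for JH2, JH3 and JH4), Single Igh IAA/Dox (0.663 distinct, 3.26, 4.23 and 2.00 for JH1, JH2 and JH4) and Wapl-degron against parental (1.74 distinct, 0.282 and 0.957 for JH1 and JH2). They turned for mean bases missing for Wapl-degron IAA/Dox (-0.140, JH4), Single Igh IAA/Dox (0.0641 and 0.138, JH2 and JH3), INV (-0.207, JH4) and Wapl-degron against parental (0.177 distinct, then 0.00862, 0.0716, 0.0187 and 0.0662 for JH1 to JH4). In V(D)J joints they turned for INV with 8-base stretches (0.406) and Wapl-degron against parental with distinct junctions (0.0461).

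Counts of segments called moved by over 1.5 times in 20 of 77 alternatives. INV BM (12) ranged from 0 to 26 without 1 library, was 24 with all junctions as library size, 19 with distinct junctions and 1 with the replicate block. Single Igh (23) ranged from 12 to 30 and was 5 with run as a factor. INV (15) ranged from 2 to 30, was 5 at a minimum of 100 junctions and 1 with run. WT BM against parental (39) was 3 with all junctions as library size, and Wapl-degron against parental (0) was 1 without parental replicate 1.

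Replicate numbers did not pair the libraries: no comparison had every correlation above 0.1 (-0.404 to 0.447). With the replicate block, limma gave log2 differences of 2.35, 1.95 and -1.02 for the Wapl-degron, Single Igh and INV comparisons, and mean paired differences in share were 49.4, 34.1 and -23.5 points (exact sign-flip permutation p = 0.25, the smallest possible). Shares from under 1000 junctions of a bait, and V(D)J shares in INV libraries, are limited by depth.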
